A study of Mus musculus with 6 samples.

Results

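The genes described here were the enzymes, regulators and carrier of sterol and fatty acid synthesis, measured in mouse airway epithelium with and without TGF-β1. The list held 34 genes, 21 of the sterol arm and 13 of the fatty acid arm, chosen by their known function. Earlier results of these data were known when the list was chosen. Probes were assigned to them by RefSeq accession, and 33 of the 34 had a probe. Acat2, which makes acetoacetyl-CoA, had no matched probe and was not analysed here. All 33 genes were well above background on all 6 arrays, so that the filter on dim probes removed none of them. They were 33 of 22910 genes on the array and 33 of 14345 genes tested.

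The arrays came from 2D-MAOs, organoids of lung airway epithelium from C57BL/6 mice that had been plated as a flat layer on type I collagen. From day 3 the medium of all 6 cultures lacked noggin, an inhibitor of BMP ligands, and A83-01, an inhibitor of the TGF-β receptor kinase, and 3 cultures also received TGF-β1, a secreted growth factor. All were collected on day 7. The controls were therefore cultures in the same reduced medium without added TGF-β1, not cultures in the full organoid medium. The study calls the 3 cultures per group biological replicates, and the sources used here give no TGF-β1 concentration for the arrays. Each culture had 1 array of a 1-colour design, where a probe's signal is the brightness of the dye-marked RNA it captured.

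Cells make cholesterol from acetyl-CoA through the mevalonate pathway, which joins isoprenoid units into squalene, and then through the cyclisation of squalene to lanosterol and a series of steps that trim lanosterol. Fatty acids are built from acetyl-CoA by carboxylation and repeated condensation, and are then elongated and desaturated. The transcription factors encoded by Srebf2 and Srebf1 are known to drive both arms. They are held in the endoplasmic reticulum by Insig proteins when sterols are plentiful and released by Scap and proteases when sterols are scarce. In lung, these routes also feed the membranes of dividing epithelium and, in alveolar type 2 cells, the lipids of surfactant.

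Promoters of Srebf targets are known to combine a sterol response element with NF-Y or GC boxes, so the letters before the starts of a few of the genes are shown ahead of the values. RefSeq windows on the mouse assembly GRCm38.p6, from 250 bases before to 50 bases after a transcription start, were found for 27 of the 34 genes. The motifs searched on both strands were the core of the sterol response element bound by the Srebf factors (TCACNCCAC), the NF-Y box (CCAAT) and the GC box bound by Sp factors (GGGCGG). The 200 bases before the start are printed 5′ to 3′ for 4 sterol genes on which the results below turn and, for comparison, for Fasn of the fatty acid arm. Capitals mark the sterol response element core and the NF-Y boxes on either strand, the latter read as ATTGG on the reverse strand. The stretches lie at chr13:119690151-119690350 on the plus strand for Hmgcs1, at chr13:8885406-8885605 on the plus strand for Idi1, at chr8:122443423-122443622 on the minus strand for Mvd, at chr10:76531405-76531604 on the plus strand for Lss and at chr11:120824548-120824747 on the minus strand for Fasn.
Hmgcs1: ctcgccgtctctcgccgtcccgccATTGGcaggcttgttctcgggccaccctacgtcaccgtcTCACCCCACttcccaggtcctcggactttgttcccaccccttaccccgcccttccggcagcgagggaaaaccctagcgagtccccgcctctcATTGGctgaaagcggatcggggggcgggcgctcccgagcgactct
Idi1: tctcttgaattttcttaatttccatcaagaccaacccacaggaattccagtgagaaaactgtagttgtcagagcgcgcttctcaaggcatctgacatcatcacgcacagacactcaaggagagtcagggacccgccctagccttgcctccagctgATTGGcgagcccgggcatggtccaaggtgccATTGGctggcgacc
Mvd: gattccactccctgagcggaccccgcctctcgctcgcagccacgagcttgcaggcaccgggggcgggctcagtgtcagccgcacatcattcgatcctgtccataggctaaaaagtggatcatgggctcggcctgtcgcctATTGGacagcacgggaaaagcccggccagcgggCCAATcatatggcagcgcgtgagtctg
Lss: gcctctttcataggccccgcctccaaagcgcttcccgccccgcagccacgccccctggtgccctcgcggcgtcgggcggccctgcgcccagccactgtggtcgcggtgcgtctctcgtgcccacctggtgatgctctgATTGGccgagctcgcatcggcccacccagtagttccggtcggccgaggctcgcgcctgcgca
Fasn: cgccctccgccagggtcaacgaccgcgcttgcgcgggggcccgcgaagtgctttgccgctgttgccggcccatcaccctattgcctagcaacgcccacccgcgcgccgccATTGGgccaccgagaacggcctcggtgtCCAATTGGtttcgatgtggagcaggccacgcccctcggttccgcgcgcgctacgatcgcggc
The stretches of Hmgcs1, Idi1 and Mvd each held 2 NF-Y boxes, that of Lss held 1, and that of Fasn held 3, of which 2 overlap each other. Hmgcs1 was the single gene of the list whose window held the sterol response element core in these letters.

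Over the whole windows, 16 of 17 sterol genes (94.1%) and 7 of 10 fatty acid genes (70%) held an NF-Y box, against 41.1% of all 27025 genes of the RefSeq table. The GC box was found in 16 of 17 sterol genes (94.1%), in 6 of 10 fatty acid genes (60%) and in 38.2% of all genes. The sterol response element core was found in 1 of 17 sterol genes, in 0 of 10 fatty acid genes and in 1.44% of all genes. These counts describe letters in windows and were not tested, and base composition was not matched between the genes and the table. Of the genes in the results below, Fdps, Fdft1, Sqle, Stard4, Scd1, Scd2 and Fads1 had no window in the table and are not included in these shares, while Acat2 is.

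Before the results, the arrays were compared with each other, since TGF-β1 replicate 3 stood apart. The array headers place the arrays of replicate 3 of both groups in row 2 of the slide and the other 4 arrays in row 1. Over all genes tested, TGF-β1 replicates 1 and 2 were close to each other, at a Euclidean distance of 32.3 in log2 signal. The distance of TGF-β1 replicate 3 was 61.1 and 62.3 to these arrays and 54.4 to control replicate 3. The 3 control arrays lay 38.7 to 48.1 from each other. Slide row and replicate 3 cannot be told apart in this design, so that values are given over all 6 arrays, within slide row 1 and without TGF-β1 replicate 3. All values below are log2 signals after quantile normalisation, and all changes are TGF-β1 minus control. Levels were compared between arrays and not between genes, except where probes or genes are ordered by brightness.

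The labelled tissue was checked with marker genes. All 8 epithelial markers, Epcam and Cdh1 among them, were well above background on all 6 arrays. Of 8 markers of alveolar type 2 cells, 3 were detected on all 6 arrays and 5 on none, including Sftpc and Sftpb, which encode surfactant proteins. Of 6 markers of alveolar type 1 cells, 5 had a probe and all 5 were detected on all 6 arrays. Of 6 adipocyte markers 4 were above background on no array, Adipoq and Plin1 included, and 2 on all 6. Of 5 endothelial markers 4 were above background on no array and 1 on all 6. Of 7 markers of leukocytes and macrophages 3 were above background on no array and 2 on all 6, Cd68 and Cd3e. Of 7 fibroblast markers 3 were above background on no array and 2 on all 6. The mean log2 signal of this list was 3.69 to 3.87 on control and 4.37 to 4.80 on TGF-β1 arrays. These means include probes that were not above background. The collagen genes Col1a1 and Col1a2 were above background on no control array and on all 3 TGF-β1 arrays. They passed the filter only through the TGF-β1 arrays, so that no p-value is given. They were at least 2.16-fold and 2.38-fold higher, with each bound taken against the lowest signals above background on the control arrays. Of 6 markers of airway secretory and ciliated cells 5 were detected on all 6 arrays, with a mean log2 signal of 10.09 to 10.59 on the control and 10.22 to 10.35 on the TGF-β1 arrays. Foxj1, a factor of ciliated cells, was higher by 1.47 (adjusted p = 0.00239, limma), with groups that did not overlap. Scgb1a1, a secretory protein of club cells, read 10.83, 10.18 and 7.77 without and 7.00, 7.57 and 7.42 with TGF-β1. Its control replicate 3 lay near the TGF-β1 arrays, and the change was -2.27 (adjusted p = 0.158, limma). Scgb3a2, another secretory protein, was higher by 1.05 (adjusted p = 0.117, limma), with groups that did not overlap. Of the same list, Cyp2f2 was at -0.07 and Tubb4b at -0.19. The part of these cell types in the results below was not tested. In bulk RNA, fewer cells that express a gene and less of its RNA per cell cannot be told apart.

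Over all 6 arrays, no gene of either arm passed the test. Sterol genes were on the whole somewhat lower with TGF-β1, with a median log2 change of -0.19 over 20 genes (-0.32 under scaling to the 75th percentile), of which 15 were lower and 5 higher, against 54.2% lower and 45.8% higher among all genes. Fatty acid genes had a median of 0.02 over 13 genes, which turned to -0.19 when arrays were scaled to the 75th percentile. The median over all 14345 genes was -0.03. With limma and Benjamini-Hochberg adjustment, 0 of 33 genes had an adjusted p under 0.05, against 2.04% of all genes tested (1.63% higher and 0.404% lower). At an unadjusted p under 0.05 from limma 2 of the 33 were lower, Lss and Acss2, and 0 were higher, against 10.7% and 11.4% of all genes. The unpaired test named in the methods called 0 of the 33 at its unadjusted threshold, against 17.1% of all genes. In none of the 33 did the 3 TGF-β1 arrays lie on one side of the 3 controls, which was so for 26.4% of all genes. The exact two-sided permutation test gave 0.2 to 1 for the single genes, where 3 against 3 arrays cannot go below 0.1. All but 6 of the 33 changes were under 0.5 in size.

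**Figure D1:**
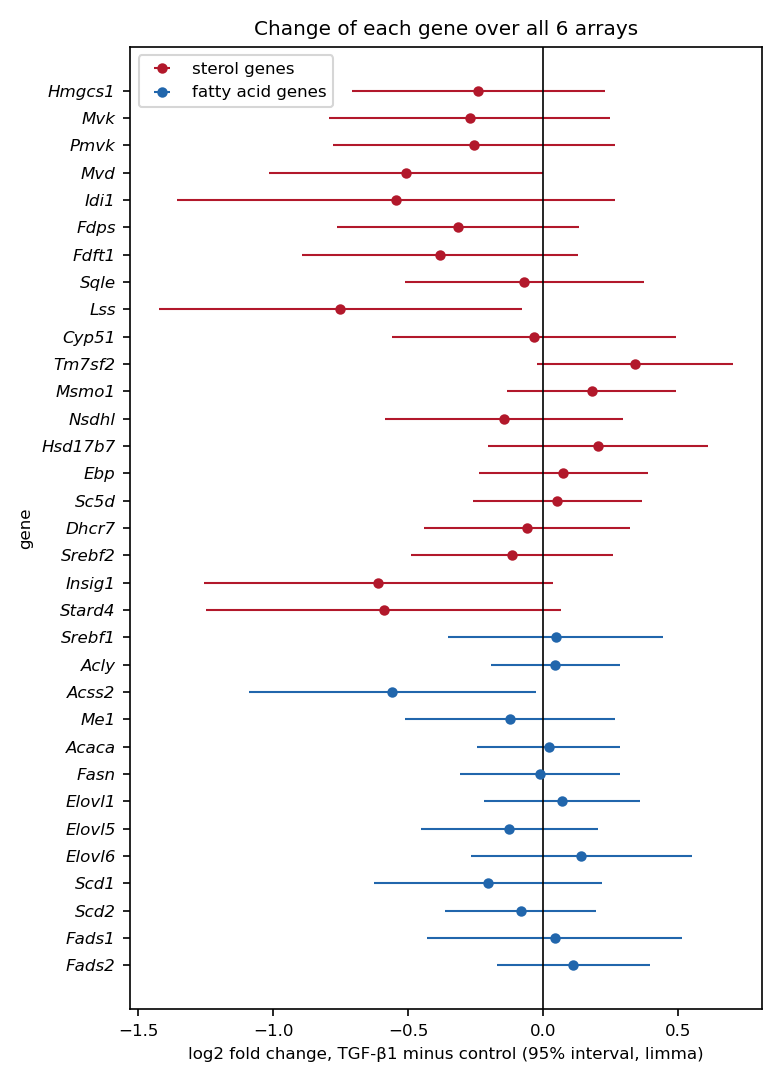
Log2 fold change of each of the 33 genes over all 6 arrays, TGF-β1 minus control, with the 95% interval from limma (3 arrays per group). Sterol genes are red and fatty acid genes blue. The points lie between -0.75 (Lss) and 0.34 (Tm7sf2), and only the intervals of Lss and Acss2 exclude 0.

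The first steps of the sterol arm showed the same sign throughout. All 6 mevalonate genes measured were lower, with a median change of -0.29 and a range from -0.54 to -0.24. Hmgcs1, which makes HMG-CoA, read 14.34, 14.19 and 13.84 on the control arrays 1, 2 and 3 and 13.80, 13.63 and 14.22 on the TGF-β1 arrays 1, 2 and 3. TGF-β1 replicate 3 lay above controls 2 and 3, so that the groups overlapped. The change was -0.24 ± 0.20 (SE, n = 3 per group, adjusted p = 0.485, limma). Mvd, which decarboxylates mevalonate pyrophosphate, read 10.36, 10.24 and 9.69 without and 9.34, 9.59 and 9.84 with TGF-β1. Here only TGF-β1 replicate 3 lay above the lowest control, replicate 3, and the change was -0.51 ± 0.21 (adjusted p = 0.226, limma).

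Idi1, the isomerase that sets the balance of the isoprenoid building blocks, varied most among the mevalonate genes. Its controls read 12.79, 12.53 and 11.77, and the TGF-β1 arrays read 11.57, 11.48 and 12.41. Control replicate 3 lay near TGF-β1 replicates 1 and 2, while TGF-β1 replicate 3 lay near controls 1 and 2. The change over all arrays was -0.54 ± 0.34 (adjusted p = 0.367, limma). The kinases Mvk (-0.27) and Pmvk (-0.26) and the farnesyl pyrophosphate synthase Fdps (-0.31) were lower by less, and their 6 arrays spanned 10.83 to 11.54, 11.16 to 12.00 and 13.37 to 14.03.

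From squalene to lanosterol all 3 genes were lower, with a median of -0.38. Lss, which closes squalene epoxide into lanosterol, had the largest change of the list. It read 11.78, 11.34 and 11.12 on the controls and 10.29, 10.46 and 11.23 on the TGF-β1 arrays. TGF-β1 replicates 1 and 2 lay below all controls and replicate 3 lay between controls 2 and 3. The change was -0.75 ± 0.28, or 1.68-fold lower, with an unadjusted p of 0.0335 and an adjusted p of 0.192 (limma). Its 2 other probes gave changes within -0.94 to -0.64. Fdft1, the squalene synthase, was at -0.38 with arrays from 13.25 to 14.13. Sqle, which oxidises squalene and is a control point of the route, read 14.04, 13.63 and 13.43 without and 13.53, 13.51 and 13.85 with TGF-β1. The values of Sqle were interleaved, at a change of -0.07 ± 0.19 (adjusted p = 0.843, limma).

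The steps after lanosterol did not all share that sign. Of 8 genes 5 were higher and 3 were lower, with a median of 0.06 that turned to -0.13 under scaling to the 75th percentile. Under that scaling, and also with the dimmest probe of each gene, 2 were higher and 6 lower. Cyp51, which removes a methyl group of lanosterol, read 12.30, 11.88 and 11.47 on the controls and 11.68, 11.81 and 12.05 with TGF-β1. The control arrays spanned more than the TGF-β1 arrays and enclosed them, at a change of -0.03 ± 0.22 (adjusted p = 0.938, limma). The other probe of Cyp51 gave -0.40. Dhcr7, which carries out a last reduction towards cholesterol, read 10.36, 9.95 and 9.78 without and 9.96, 10.01 and 9.94 with TGF-β1. All 3 TGF-β1 values of Dhcr7 lay within the controls, at -0.06 ± 0.16 (adjusted p = 0.842, limma). The reductase Tm7sf2 was at 0.34, the highest change of the list (arrays 10.97 to 11.67), and Hsd17b7 at 0.20 (12.14 to 12.79). Msmo1 (0.18), Ebp (0.07) and Sc5d (0.05) had small positive changes and Nsdhl was at -0.14. The 6 arrays of these spanned 14.75 to 15.23, 14.30 to 14.66, 13.50 to 13.82 and 10.18 to 10.84.

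Of the regulators and the carrier of the sterol arm, the mRNA of the transcription factor differed least. Srebf2 read 11.82, 11.28 and 11.40 on the controls and 11.38, 11.34 and 11.44 on the TGF-β1 arrays, a change of -0.12 ± 0.16 (adjusted p = 0.676, limma). Apart from control replicate 1 all its arrays lay within 11.28 to 11.44. Insig1, which retains the Srebf factors in the endoplasmic reticulum and is itself a known target of them, read 10.31, 9.81 and 9.42 without and 9.03, 9.01 and 9.66 with TGF-β1. TGF-β1 replicates 1 and 2 were below all controls and replicate 3 was above control replicate 3. The change was -0.61 ± 0.27, or 1.53-fold lower (adjusted p = 0.244, limma). Stard4, which carries cholesterol through the cytosol, read 9.57, 8.95 and 8.73 without and 8.46, 8.11 and 8.91 with TGF-β1. The pattern over arrays was that of Insig1, and the change was -0.59 ± 0.28 (adjusted p = 0.262, limma).

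**Figure D2:**
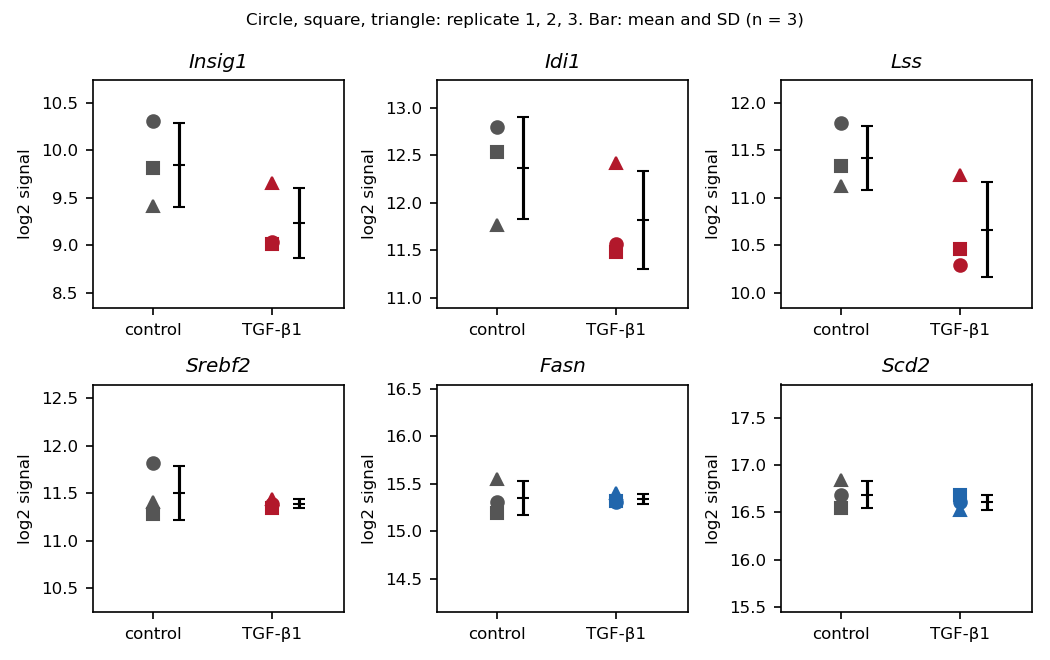
Log2 signal of Insig1, Idi1, Lss and Srebf2 (sterol arm) and of Fasn and Scd2 (fatty acid arm) on each array, with every vertical axis spanning the same number of log2 units. In Insig1 and Idi1 the triangle of TGF-β1 replicate 3 (9.66 and 12.41) lies above that of control replicate 3 (9.42 and 11.77), opposite to replicates 1 and 2, while all 6 arrays of Fasn and Scd2 lie close together.

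Fatty acid genes varied less over the arrays. The median within-group SD was 0.165 over these 13 genes, 0.271 over the 20 sterol genes and 0.181 over all genes tested. Srebf1, which encodes the factor most tied to fatty acid synthesis, read 14.38, 14.32 and 14.80 without and 14.53, 14.73 and 14.37 with TGF-β1. Its groups overlapped fully, at 0.05 ± 0.17 (adjusted p = 0.886, limma). Isoforms of this gene were not analysed separately.

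Among the genes that supply acetyl-CoA and NADPH, 1 was set apart. Acss2, which makes acetyl-CoA from acetate, read 9.21, 8.92 and 8.72 without and 8.35, 8.02 and 8.80 with TGF-β1. As for Insig1 and Stard4, TGF-β1 replicates 1 and 2 lay below all controls and replicate 3 did not. The change was -0.56 ± 0.22, or 1.47-fold lower, with an unadjusted p of 0.0418 and an adjusted p of 0.211 (limma), and its other probe gave -0.76. Acly, which makes acetyl-CoA from citrate, read 13.95, 13.93 and 14.04 without and 13.97, 13.98 and 14.10 with TGF-β1. Its change was 0.04 ± 0.10 (adjusted p = 0.812, limma), with a 95% interval from -0.20 to 0.28. Me1, a malic enzyme that yields NADPH, read 14.15, 14.03 and 14.16 without and 13.90, 13.76 and 14.33 with TGF-β1, at -0.12 ± 0.16 (adjusted p = 0.674, limma). TGF-β1 replicate 3 was the highest of the 6 arrays for Me1 and the other 2 TGF-β1 arrays were the lowest.

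Both enzymes of the core synthesis were nearly level. Acaca, the carboxylase that makes malonyl-CoA, read 12.47, 12.42 and 12.43 without and 12.30, 12.55 and 12.54 with TGF-β1, at 0.02 ± 0.11 (adjusted p = 0.925, limma). The 4 probes of Acaca disagreed, however, with changes from -0.83 to 0.02. Fasn, the fatty acid synthase, read 15.31, 15.20 and 15.55 without and 15.30, 15.32 and 15.40 with TGF-β1. All 3 TGF-β1 arrays of Fasn lay within the controls, and the change was -0.01 ± 0.12 (adjusted p = 0.969, limma), with a 95% interval from -0.31 to 0.29.

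The elongases lengthen fatty acids made by Fasn or taken from food. Elovl6 read 8.78, 8.83 and 8.70 without and 9.25, 8.86 and 8.61 with TGF-β1, at 0.14 ± 0.17 (adjusted p = 0.642, limma). Only TGF-β1 replicate 1 stood clearly above the controls. Elovl5 read 13.33, 13.16 and 13.51 without and 13.30, 13.30 and 13.03 with TGF-β1, at -0.13 ± 0.14 (adjusted p = 0.604, limma). Elovl1 was at 0.07, with arrays from 15.42 to 15.74.

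The desaturases showed no common direction. Scd1, which makes monounsaturated fatty acids, read 10.86, 10.63 and 10.47 without and 10.18, 10.75 and 10.43 with TGF-β1, at -0.20 ± 0.18 (adjusted p = 0.511, limma). Its paralogue Scd2 read 16.69, 16.54 and 16.84 without and 16.61, 16.68 and 16.52 with TGF-β1, at -0.08 ± 0.12 (adjusted p = 0.691, limma). The values of both genes were interleaved between the groups. Fads1 (0.04) and Fads2 (0.11), the desaturases of polyunsaturated fatty acids, had arrays from 11.57 to 12.21 and from 10.80 to 11.14.

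Read by array rather than by group, the sterol genes varied together and the fatty acid genes did so less. As the deviation of each gene from its own mean over the 6 arrays, the 20 sterol genes averaged 0.37, 0.10 and -0.17 on control arrays 1, 2 and 3, and -0.21, -0.19 and 0.10 on the TGF-β1 arrays. Control replicate 1 was the highest of all arrays for 16 of the 20. It exceeded control replicate 3 in 20 of 20 sterol genes, against 48.8% of all genes tested. TGF-β1 replicate 3 exceeded TGF-β1 replicate 1 in 17 and replicate 2 in 16 of the 20, against 55.2% and 54.4% of all genes. These averages thus spanned more within each group than the group means differed. For the 13 fatty acid genes the array averages lay between -0.08 and 0.09.

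**Figure D3:**
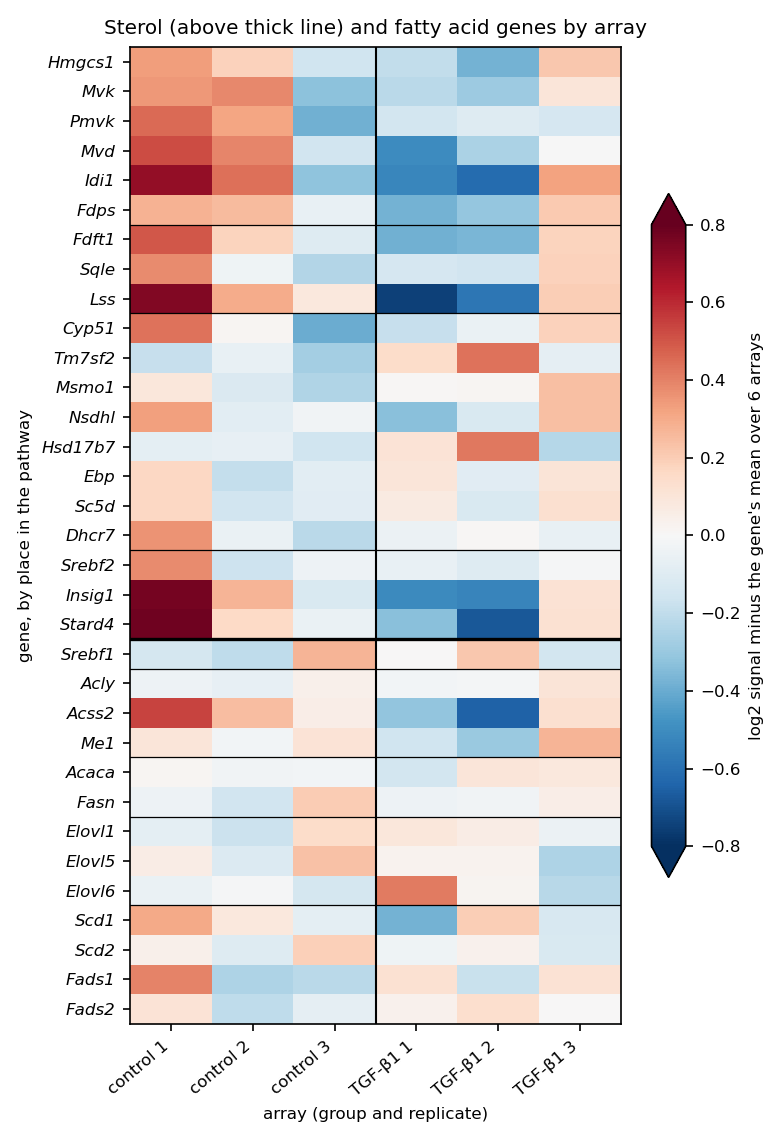
Log2 signal of each of the 33 genes on each array minus the gene's mean over the 6 arrays, with sterol genes above the thick line and fatty acid genes below it. Control replicate 1 is red in most sterol genes, while control replicate 3 is mostly blue and TGF-β1 replicate 3 mostly red.

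**Figure D4:**
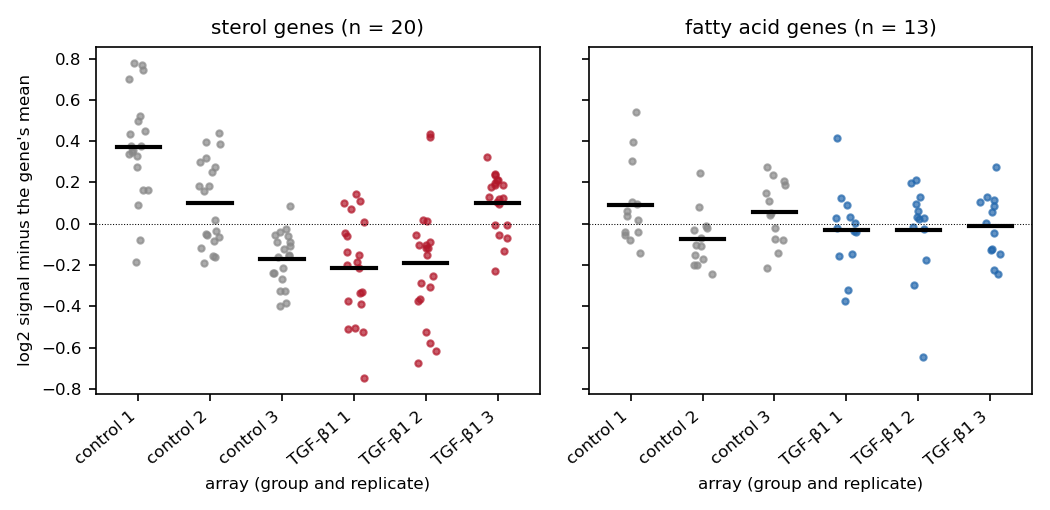
Deviation of each sterol gene (left, 20 genes) and each fatty acid gene (right, 13 genes) from its mean over the 6 arrays, with the mean of the genes as a black line. The sterol means run from 0.37 on control replicate 1 to -0.21 on TGF-β1 replicate 1, and the fatty acid means stay between -0.08 and 0.09.

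Within slide row 1, which held 2 arrays of each group, the sterol arm was lower with TGF-β1. In a limma fit of these 4 arrays 11 of the 33 genes were lower at an adjusted p under 0.05 and 0 were higher, against 13.0% lower and 13.8% higher over all genes tested. Of the 11, 10 were sterol genes, namely all 6 mevalonate genes (Hmgcs1, Mvk, Pmvk, Mvd, Idi1 and Fdps), Fdft1, Lss, Insig1 and Stard4. The other was Acss2. In this row the change was -1.18 for Lss (adjusted p = 0.0193, limma), -1.14 for Idi1 (adjusted p = 0.0127), -1.04 for Insig1 (adjusted p = 0.0253), -0.97 for Stard4 (adjusted p = 0.0494) and -0.88 for Acss2 (adjusted p = 0.0292). The smallest change among the 11 was that of Pmvk, at -0.51 (adjusted p = 0.0306). None of the 8 genes after lanosterol passed, with a median of -0.01. The median was -0.43 over the 20 sterol genes (-0.65 under scaling to the 75th percentile) and -0.05 over all genes. Over the fatty acid genes it was 0.04, and -0.23 under scaling to the 75th percentile. In 13 of the 20 sterol genes both TGF-β1 arrays lay below both controls, which was so for 38.9% of all genes. In the same 4 arrays the club cell marker Scgb1a1 changed by -3.23 (adjusted p = 0.0102, limma) and the ciliated cell marker Foxj1 by 1.497 (adjusted p = 0.00779, limma). Scgb3a2, another secretory marker, went the other way from Scgb1a1, at 1.27 (adjusted p = 0.0479, limma), and Cyp2f2 was at -0.06. Of 8 epithelial markers 4 were higher at an adjusted p under 0.05, against 13.8% of all genes. Of 5 alveolar type 1 markers 2 were lower, against 13.0%. The part of these cell types was not tested. With 2 arrays per group, these p-values rest largely on the spread that limma shares over genes.

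In slide row 2, with 1 array of each group and hence no test, the sterol genes had the opposite sign. TGF-β1 replicate 3 was above control replicate 3 in 19 of 20 sterol genes, Hsd17b7 being the exception, against 50.8% of all genes tested (49.0% were lower). The median difference was 0.25 over the sterol genes and 0.00 over all genes. Idi1 (0.65), Cyp51 (0.59), Msmo1 (0.48), Sqle (0.42) and Mvk (0.42) differed most. Of the fatty acid genes 6 were higher and 7 were lower, with a median of -0.05. A limma fit with an interaction of slide row and treatment tested the difference between the rows directly, and it was past an adjusted p of 0.05 in 0 of the 33 genes and in 1 of all 14345. At an unadjusted p under 0.05 it was 11 of 20 sterol genes (55%), 3 of 13 fatty acid genes (23.1%) and 23.3% of all genes.

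**Figure D5:**
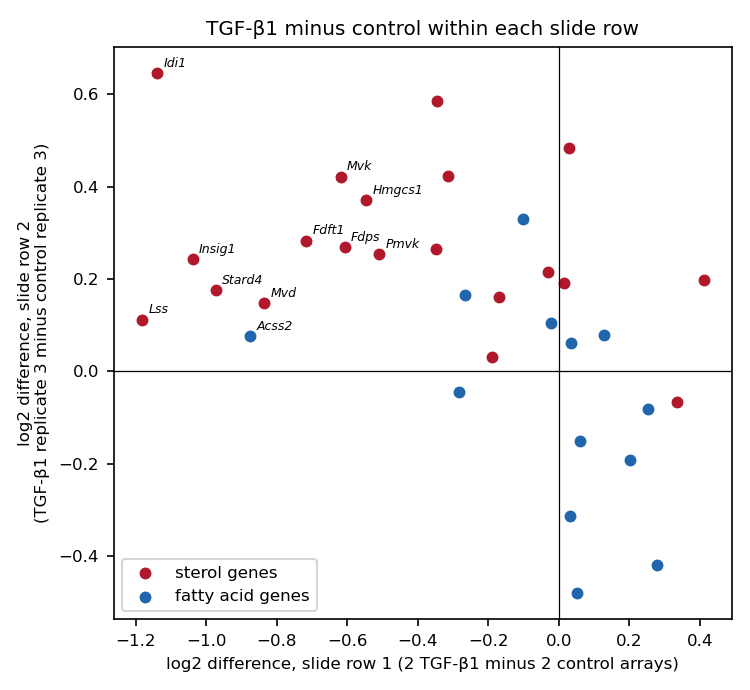
Log2 difference between TGF-β1 and control in slide row 1 (horizontal, 2 arrays per group) against that in slide row 2 (vertical, 1 array per group) for each of the 33 genes. The 11 named genes are those with an adjusted p under 0.05 in row 1, and all of them lie left of 0 and above 0, from Idi1 at -1.14 and 0.65 to Acss2 at -0.88 and 0.08.

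When TGF-β1 replicate 3 alone was left out, 2 of the 33 genes were lower and 0 higher at an adjusted p under 0.05, against 6.27% and 9.08% of all genes. These were Lss, at -1.04 (adjusted p = 0.029, limma), and Acss2, at -0.76 (adjusted p = 0.0443, limma). The sterol median was then -0.28 and the fatty acid median -0.02. Without control replicate 1 the sterol median was -0.06 and its difference from the fatty acid median -0.04, with 9 genes higher and 11 lower, and 0 of the 33 passed.

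The genes around both arms were read from lists of the same kind. Over all genes tested, 2.04% had an adjusted p under 0.05. Of 9 genes that escort, retain or cleave the Srebf proteins, 7 were higher over all 6 arrays, against 45.8% of all genes. Their median was 0.13, and 0 passed the adjusted test. The largest changes in that list were those of Erlin1 (0.60, adjusted p = 0.0836, limma), an endoplasmic reticulum protein, Mbtps1 (0.57, adjusted p = 0.137), the protease that makes the first cut, and Scap (0.54, adjusted p = 0.178), the escort itself. All 3 arrays with TGF-β1 lay above all controls for Erlin1 and Mbtps1, as in 12.9% of all genes, while Scap overlapped. In slide row 1 all 9 were higher, as were 6534 of all 14345 genes, and 4 passed, against 13.8% of all genes. In slide row 2 TGF-β1 replicate 3 was higher in 2 of 9, against 50.8% of all genes. Other lists below also held calls in slide row 1. Of 14 genes of sterol transport and LXR targets 5 were higher and 2 lower. Of 22 glycerolipid and phospholipid genes 6 were higher and 2 lower. Among 14 other enzymes of sterols and isoprenoids 11 were tested and 0 passed. The largest changes there were Hsd3b7 (0.79) and Cyp7b1 (-0.56), both of bile acid synthesis, and Lbr (0.40), a sterol reductase of the nuclear envelope.

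Of 14 genes of sterol transport and LXR targets tested, 0 passed. Abcg1 (0.85) and Abca1 (0.41), which export cholesterol, varied widely. Abca1 read 10.51, 10.75 and 12.02 on the controls and 11.96, 11.88 and 10.67 with TGF-β1. Control replicate 3 was thus the highest of the 6 arrays and TGF-β1 replicate 3 lay near controls 1 and 2, the reverse of the order seen for Idi1. Stard5, a sterol carrier, was at -0.38.

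Of 21 other fatty acid enzymes tested, 1 passed, against 2.04% of all genes tested. Acsl1, which activates long-chain fatty acids with CoA, read 12.24, 12.09 and 12.10 without and 11.55, 11.28 and 11.51 with TGF-β1. Its groups did not overlap and it fell by 0.70 (adjusted p = 0.0405, limma). Acacb, the mitochondrial carboxylase, was at -0.999 (adjusted p = 0.233) and Mid1ip1, which promotes polymerisation of the carboxylases, at -0.69 (adjusted p = 0.114). All 6 genes of NADPH supply were lower, against 54.2% of all genes, with a median of -0.26, and 0 passed. Idh1 was at -0.80 (adjusted p = 0.0638, limma), Pgd at -0.37 and G6pdx at -0.29. In 4 of the 6, these 3 among them, all TGF-β1 arrays lay below all controls, against 13.5% of all genes.

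Of 22 genes of glycerolipid and phospholipid synthesis, 1 was higher and 0 were lower at an adjusted p under 0.05. Over all genes tested, the shares were 1.63% higher and 0.404% lower. Agpat4, an acyltransferase, read 10.40, 10.46 and 10.19 without and 11.81, 11.75 and 11.07 with TGF-β1, a rise of 1.19 (adjusted p = 0.0475, limma). Chka, a choline kinase, was at -0.74 (adjusted p = 0.0532) and Cds1, which makes CDP-diacylglycerol, at -0.60 (adjusted p = 0.113). Of 18 genes of fatty acid oxidation, 1 was lower and 0 were higher, against 0.404% and 1.63% of all genes. Ppargc1a, a coactivator of mitochondrial genes, read 9.66, 10.04 and 9.53 without and 8.01, 8.30 and 8.71 with TGF-β1, and fell by 1.41 (adjusted p = 0.0295, limma). Pdk4, which restrains the entry of pyruvate, was at 0.92 (adjusted p = 0.095) and Acaa2, a thiolase, at -0.46 (adjusted p = 0.174). The calls of Acsl1, Agpat4 and Ppargc1a held without TGF-β1 replicate 3 (adjusted p = 0.0219, 0.00465 and 0.00839, limma) and were lost when any other single array was left out, at adjusted p from 0.0508 to 0.178.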

How the data were processed

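RNA of 3 control and 3 TGF-β1-treated 2D-MAO cultures was measured on 1-colour Agilent arrays. The authors deposited the spot intensity on a linear scale from Agilent Feature Extraction 11.0.1.1, background-subtracted and not normalised between arrays. The probe annotation of the design dates from an earlier mouse assembly, so genes were named only through RefSeq accessions (32991 of 56599 probes). The number of arrays limits the precision.

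Flagged spots were removed, spots of a probe averaged, log2 taken and quantiles normalised. Probes had to be well above background on 3 or more of the 6 arrays, with the brightest probe per gene. Groups were compared with limma 3.58.1 in R 4.3.3, without covariates, with Benjamini-Hochberg adjustment over 14345 genes. The code was tested on simulated data. Alternatives were normexp background (offset 50) on median brightness, 75th percentile scaling, other filters, probes, variance priors and weights, replicate and slide row blocks, slide row 1 alone, each array left out and the unpaired t-test of the methods. The dimmest probe, the interaction of slide row and treatment, and slide row 1 combined with other settings were added after the data were seen. The members, lists and motifs were chosen with earlier results of these data known. Values on every array are given for 14 preset genes and the 5 largest changes of each arm. Of each other pathway list, up to 3 genes are named.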

Additional observations from a re-analysis of the deposited data

How the results depend on the processing

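The call of 0 of 33 genes held under all alternatives over all 6 arrays other than array weights, which called 11 (10 lower, and Tm7sf2 higher), and changed to 11 in slide row 1 and 2 without TGF-β1 replicate 3. The sterol median, -0.19, kept its sign under each alternative over 6 arrays and with each array left out (-0.31 to -0.055, the latter without control replicate 1). It was -0.32 scaled to the 75th percentile, -0.41 with array weights, -0.43 in slide row 1 (-0.65 there with the percentile) and 0.25 in slide row 2. The fatty acid median was -0.19 scaled to the 75th percentile, -0.13 with the mean of a gene's probes, -0.20 with the dimmest probe and -0.046 in slide row 2. The sterol minus the fatty acid median was -0.21 and came close to 0 with the dimmest probe (-0.026), without control replicate 1 (-0.043) and with the mean of probes (-0.095). It was -0.13 scaled to the 75th percentile, -0.38 with array weights, -0.33 without control replicate 3, -0.15, -0.12 and -0.11 without TGF-β1 replicate 1, control replicate 2 and TGF-β1 replicate 2, -0.46 in slide row 1 and 0.29 in slide row 2. In slide row 1 the fatty acid median was 0.04, and -0.23, -0.060 and -0.20 with the percentile, the mean of probes and the dimmest probe. Those 3 called 13, 11 and 11 genes there, and normexp called 11. Genes called across the array, 292, became 74 with no filter, 507 with a trend and robust prior, 4982 with array weights, 3846 in slide row 1, 9 with the t-test of the methods after adjustment and 2451 before it. Leaving out each array gave 56 to 2202 genes called, 0 to 2 of the 33, and fatty acid medians of -0.069 to 0.015. The causes were not tested.

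With the replicate number as a block, 103 genes passed across the array and 0 of the 33. Deviations of arrays with the same number correlated at -0.0079, 0.333 and -0.047, so that the pairing rests on a shared number alone. The block also ended the calls of Acsl1, Agpat4 and Ppargc1a (adjusted p = 0.0847, 0.0606 and 0.0836, limma), as did no filter (0.077, 0.136 and 0.11) and the adjusted t-test. The mean of probes and the dimmest probe ended that of Agpat4.

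Changes that turned sign were small over all 6 arrays, other than that of Acacb. Scaled to the 75th percentile the changes were Msmo1 -0.095, Ebp -0.16, Sc5d -0.15, Srebf1 -0.18, Acly -0.17, Acaca -0.12, Elovl1 -0.19, Fads1 -0.093. With normexp background the changes were Cyp51 0.0051, Acaca -0.044, Fasn 0.042. With the mean of a gene's probes the changes were Ebp -0.016, Acly -0.14, Acaca -0.32, Elovl1 -0.023, Fads1 -0.13. With array weights the changes were Ebp -0.0012, Sc5d -0.036, Acaca -0.041, Fasn 0.012, Fads1 -0.12. In slide row 1 the changes were Sc5d -0.030, Acaca -0.021, Fasn 0.060, Elovl5 0.052, Scd2 0.032, Fads1 -0.10. With the dimmest probe the changes were Msmo1 -0.039, Hsd17b7 -0.019, Ebp -0.11, Acly -0.33, Acaca -0.83, Elovl1 -0.12, Fads1 -0.31, Fads2 -0.065, Acacb 0.39. Leaving out each array in turn turned the sign of Acaca (-0.022 to 0.09998), Cyp51 (-0.24 to 0.17), Dhcr7 (-0.18 to 0.10), Ebp (-0.0014 to 0.18), Elovl6 (-0.031 to 0.29), Fads1 (-0.069 to 0.25), Fasn (-0.088 to 0.090), Sc5d (-0.013 to 0.15), Sqle (-0.20 to 0.10), Srebf1 (-0.048 to 0.19), Srebf2 (-0.23 to 0.044).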

Other observations

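Several probes were available for 18 of the 33 genes, and the change depended on which probe was read. The dimmest probe gave a lower change than the brightest in 17 of the 18, and this was also so for 80.8% of the 5361 genes of the array with several probes. Read by the dimmest probe, the median change of the 8 fatty acid genes with several probes was -0.32 in place of 0.03, and that of the 10 such sterol genes was -0.31 in place of -0.14. Over all genes, the median change split by brightness into 4 groups of equal size, went from -0.09 in the dimmest group to 0.01 in the brightest. Of the 33 genes, 16 lay in the brightest group, 11 in the next, 6 in the one after and 0 in the dimmest. The choice of probe was compared after the data were seen, and its cause was not tested.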
